A study of Mus musculus with 6 samples.

Results

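The genes described here encode 10 integrin subunits of mouse bone marrow-derived macrophages (Mφs), namely Itga4, Itga5, Itga6, Itgal, Itgam, Itgav, Itgax, Itgb1, Itgb2 and Itgb7. They were chosen by gene symbol, and all 10 were found among the 41549 genes of the deposited table. Messenger RNA was measured in 6 libraries of Mφs that had been differentiated with M-CSF from bone marrow of wild-type C57Bl/6 N mice. All cells then received IL-4 and IL-13, which polarize Mφs to the anti-inflammatory M2 state. Before that step they were transfected with an antisense oligonucleotide against 5′tRF-Glu(CTC), which is cut from the start of the tRNA that carries glutamate (αGlu, 3 libraries), or with a control antisense (Ctr, 3 libraries). The comparison asks which integrin transcripts differ when the fragment is blocked. The fragment itself is not measured by mRNA libraries, so the group labels could not be checked against it, and the libraries come from whole cultures rather than sorted cells.

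Integrins are receptors made of an α and a β subunit that bind the extracellular matrix or proteins on other cells, and they reach the cell surface as pairs. The β subunit links the pair to the actin cytoskeleton through talin and kindlin, which also switch the receptor to its active state. In leukocytes the β2 subunit pairs with αL, αM, αX or αD and serves firm adhesion to endothelium and uptake of complement-coated particles. The β1 and αV families bind mainly matrix proteins such as fibronectin, laminin and vitronectin. In Mφs the αX subunit, known as CD11c, and the αM subunit, known as CD11b, are common surface markers of the cell state.

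The oligonucleotide that separates the groups is shown with the target sequence that the study lists for it, a stretch of 5′tRF-Glu(CTC) and not the whole fragment. Capitals mark the 20 bases complementary to the antisense, starting at base 2 of the 21 bases listed, and both are written 5′ to 3′ in DNA letters.
Antisense to 5′tRF-Glu(CTC): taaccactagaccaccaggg
Listed target within 5′tRF-Glu(CTC): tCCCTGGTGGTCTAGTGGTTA

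Libraries held from 17912831 to 30386653 counts. The library αGlu 1 stands apart from its group. Across genes, which are not independent replicates, Pearson's r of log2 levels was 0.992 between αGlu 2 and αGlu 3 and at most 0.929 between αGlu 1 and either of them, while αGlu 1 correlated with the Ctr libraries at 0.967 to 0.983. Fitted changes of the 10 integrins are therefore given with and without αGlu 1. This choice was made from the same values, and leaving out a library that lies near Ctr tends to widen the difference between groups. Fits without αGlu 1 compare Ctr with αGlu 2 and 3 only. Their adjusted p-values, and the words rose and fell there, describe these libraries and are not independent support. Macrophage identity was checked with 12 marker genes, all of which had a mean above 1 CPM (counts scaled to a common library size), and whose sum was 14902 to 16714 CPM in Ctr and 16124 to 22188 CPM in αGlu. Lyz2 was the largest part of this sum, and single markers differed in both directions. Cd14 had 17.3 to 30.1 CPM in Ctr and 12.4, 293 and 240.2 CPM in αGlu 1, 2 and 3. Cd68 had 1809 to 2063 CPM in Ctr and 1990.1, 1237 and 1144 CPM in αGlu 1, 2 and 3. Marker sums of mast cells and fibroblasts were at most 5.96 and 7.95 CPM in any library.

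All 10 integrin genes passed the low-count filter. After Benjamini-Hochberg adjustment over the 11933 genes tested by edgeR's quasi-likelihood method, 0 of the 10 were called at an adjusted p under 0.1 and a log2 fold change beyond 1, where 0% of all genes were called. At an unadjusted p under 0.05 there were 2 members, Itgb2 and Itgb7, against 24.7% of all genes. DESeq2 called 2, with Itgb2 lower and Itgb7 higher in αGlu, and limma-voom called 0. The percentages of all genes called by DESeq2 were 3.93% lower and 4.23% higher. Without αGlu 1 the quasi-likelihood test called 6 of the 10. Itgax, Itgb2, Itga4 and Itga6 fell, where 10.5% of all genes were called as lower, and Itgam and Itgal rose, where 8.05% were called as higher. The groups did not overlap for 3 members that were lower in αGlu (Itgax, Itgb1 and Itgb2; 15.9% of all genes) and for 1 that was higher (Itgb7; 14.2% of all genes).

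**Figure D1:**
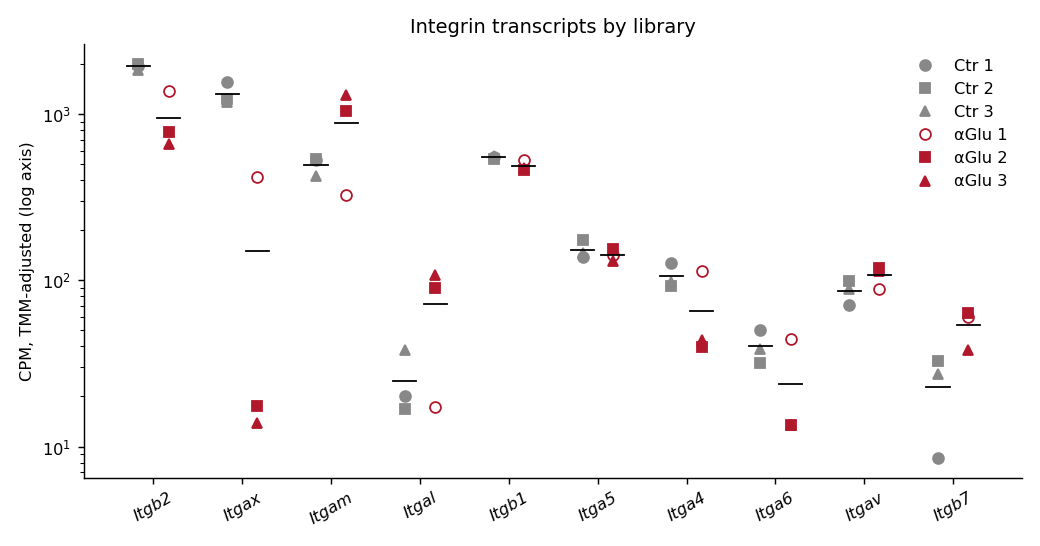
Levels of the 10 integrin genes in CPM, scaled to TMM-adjusted library sizes, on a log axis; grey symbols are the 3 Ctr libraries, red symbols the 3 αGlu libraries (αGlu 1 open), and short lines the group means. Itgax spans 1175 to 1548 CPM over the Ctr libraries and drops to 418, 17.6 and 13.8 CPM over αGlu 1, 2 and 3, while αGlu 1 sits at or near the Ctr libraries for Itga4, Itga6, Itgal and Itgav.

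Among the leukocyte integrins, Itgax showed the largest difference of the 10 genes. Itgax (ENSMUSG00000030789; chromosome 7, 128129547 to 128150657, plus strand, GRCm38) encodes αX, which with β2 forms a complement receptor. It had 1548, 1224 and 1175 CPM in Ctr 1, 2 and 3. In αGlu 1, 2 and 3 it had 418, 17.6 and 13.8 CPM. Every αGlu library thus lay below every Ctr library, by 3.15-, 74.9- and 95.6-fold under the Ctr mean for αGlu 1, 2 and 3. The low values rest on 558 and 375 reads in αGlu 2 and 3, against at least 25327 in each Ctr library, so depth does not limit them. With all libraries the fitted log2 fold change was -3.14 with an SE of 1.38, and it was not called (adjusted p = 0.221 in edgeR's quasi-likelihood test). Without αGlu 1, Itgax fell by 6.40 on the log2 scale (SE 0.22, adjusted p = 1.84e-05). The estimate from all libraries also depended on the model. It was -4.82 in limma-voom and -5.03 with the replicate number as a block, and neither fit called Itgax. In whole cultures, fewer cells that carry a transcript and less of it per cell cannot be told apart.

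Because αX also marks dendritic cells, genes typical of these cells were read beside it. Of 6 such genes 0 had a mean above 1 CPM over the 6 libraries, their sum was 1.62 to 2.22 CPM in Ctr and 0.77 to 1.38 CPM in αGlu, and Xcr1 was at 0 in all libraries.

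Itgb2 (ENSMUSG00000000290; chromosome 10, 77530252 to 77565708, plus strand), the common β2 chain, was the most abundant of the 10 in Ctr. It had 1955, 2005 and 1839 CPM in Ctr and 1380, 783 and 664 CPM in αGlu 1, 2 and 3. The groups did not overlap, and the means of 1933 ± 85.3 and 942 ± 384 CPM (SD, n = 3) differed 2.05-fold. Its fitted log2 difference of -1.04 ± 0.30 (SE) had an unadjusted p of 0.0132 and an adjusted p of 0.159 in edgeR's quasi-likelihood test. DESeq2 called it at an adjusted p of 0.0128. Without αGlu 1, Itgb2 fell by 1.42 (adjusted p = 0.000288).

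Itgam (ENSMUSG00000030786; chromosome 7, 128062640 to 128118491, plus strand) encodes αM, which with β2 forms the receptor for inactivated complement C3. It had 526, 534 and 425 CPM in Ctr, and 324, 1035 and 1305 CPM in αGlu 1, 2 and 3. The αGlu libraries lay on both sides of Ctr, since αGlu 1 was below every Ctr library while αGlu 2 and 3 were 2.09- and 2.64-fold above the Ctr mean. With all libraries, the fit gave 0.84 ± 0.49 on the log2 scale (SE, adjusted p = 0.307, edgeR quasi-likelihood test). Without αGlu 1, Itgam rose by 1.24 (SE 0.15, adjusted p = 0.00129).

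Itgal (ENSMUSG00000030830; chromosome 7, 127296260 to 127335138, plus strand) encodes αL, which with β2 binds the ICAM proteins. Its level was low in Ctr, with 20.1, 16.7 and 37.9 CPM, and αGlu 1, 2 and 3 had 17.2, 89.7 and 108 CPM. As with Itgam, αGlu 2 and 3 exceeded every Ctr library and αGlu 1 did not. Over all libraries the fitted log2 difference was 1.53 ± 0.69 (SE, adjusted p = 0.226), whereas Itgal rose by 1.99 when αGlu 1 was left out (SE 0.33, adjusted p = 0.00452; edgeR quasi-likelihood test).

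αM and αL are also carried by neutrophils, so 13 genes typical of these were read beside Itgam and Itgal. Their sum was 129 to 211 CPM in Ctr and 241 to 636 CPM in αGlu, of which the G-CSF receptor gene Csf3r made up 536 and 607 CPM in αGlu 2 and 3. Only 4 of the 13 had a mean above 1 CPM, and Ly6g and Retnlg were at 0 in all libraries. Without αGlu 1, the quasi-likelihood test called 2 of 6 tested as higher (Csf3r and S100a8) and 3 as lower (S100a9, Mpo and Ngp). Over all genes it called 8.05% as higher and 10.5% as lower. The lymphocyte sum, over 9 genes, was 18 to 31.1 CPM in Ctr and 18.5 to 21.4 CPM in αGlu, nearly all of it Cd4, with Cd3g at 0. The part of other cells in the values of Itgam and Itgal was not tested beyond these levels.

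**Figure D2:**
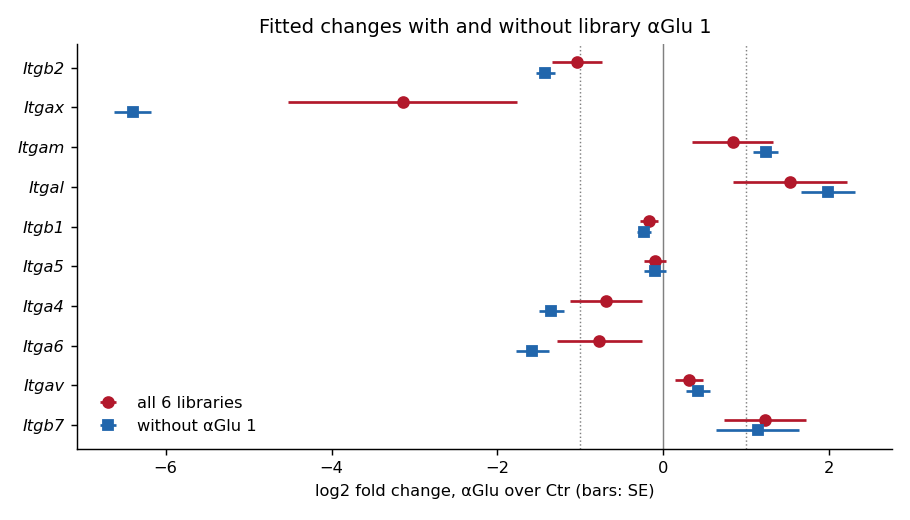
Fitted log2 fold change (αGlu over Ctr) of the 10 integrin genes in the quasi-likelihood model with all 6 libraries (red circles) and without αGlu 1 (blue squares), with bars of 1 SE and dotted lines at a log2 fold change of 1 in each direction. Itgax moves from -3.14 to -6.40 and its error narrows from 1.38 to 0.22, while Itga5, Itgb1 and Itgav stay within the dotted lines in both fits.

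These α subunits share 1 partner, so their levels were compared per transcript length, with the deposited TPM values, which scale counts by length and depth. By transcript, Itgax held 74.6%, 69.6% and 72.7% of the summed TPM of Itgax, Itgam, Itgal and Itgad in Ctr 1, 2 and 3. Protein levels and the pairing with β2 were not measured. In αGlu 1, 2 and 3 this share was 56.2%, 1.64% and 1.03%. The share of Itgam was 24.2%, 29.0% and 25.1% in Ctr and 41.7%, 92.2% and 93.0% in αGlu. All αGlu libraries, αGlu 1 included, thus had a lower Itgax share and a higher Itgam share than every Ctr library. The TPM ratio of Itgam to Itgax was 0.325 to 0.417 in Ctr and 0.741, 56.3 and 90.7 in αGlu 1, 2 and 3. In αGlu 1 both genes were below Ctr, with Itgax at 269.9 TPM and Itgam at 199.9 TPM, whereas in αGlu 2 and 3 Itgam was above it. With 3 libraries against 3 an exact permutation test cannot go below 0.1, so these shares carry no p-value.

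The sum of the 4 α subunits was 1329, 1091 and 1006 TPM in Ctr and 480, 715 and 918 TPM in αGlu 1, 2 and 3. Set against Itgb2 in the same library, the ratio was 0.674, 0.557 and 0.558 in Ctr. It was 0.342 in αGlu 1 and 0.871 and 1.28 in αGlu 2 and 3, so the αGlu libraries lay on both sides of Ctr.

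**Figure D3:**
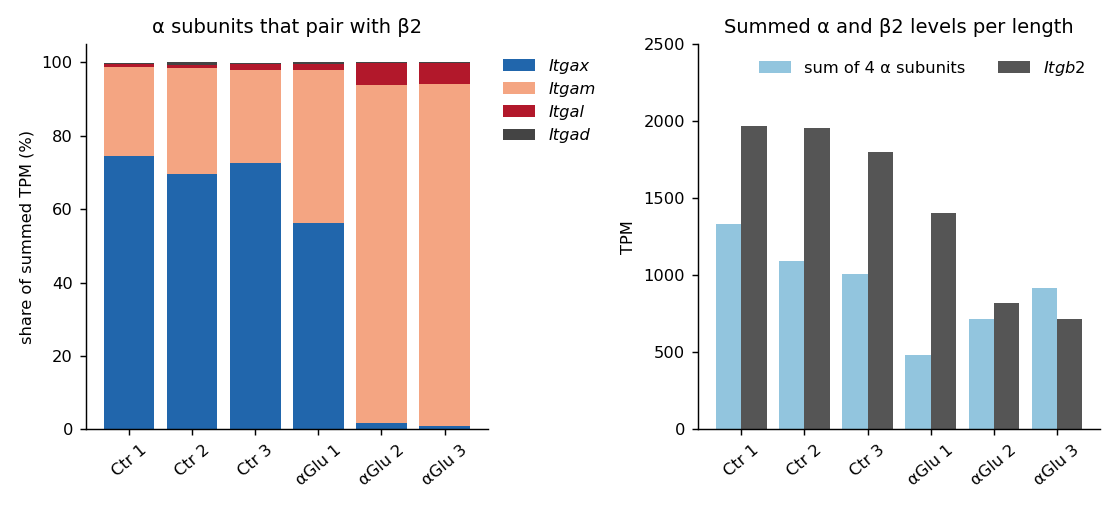
Left, share (%) of each α subunit gene in the summed TPM of the 4 partners of β2, by library; right, the summed TPM of the 4 α subunits beside the TPM of Itgb2. The Itgax share is 69.6% to 74.6% in Ctr, 56.2% in αGlu 1 and at most 1.64% in αGlu 2 and 3, and the summed α level exceeds Itgb2 only in αGlu 3.

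Itgad, which encodes αD, is the neighbour of Itgax and not 1 of the 10. It had 8.63, 11.6 and 6.68 CPM in Ctr and 2.92, 0.378 and 0.330 CPM in αGlu, with no overlap. Its fitted log2 difference was -2.98 ± 0.87 (SE, adjusted p = 0.159), and without αGlu 1 it fell by 4.65 (adjusted p = 0.000233; edgeR quasi-likelihood test). Of the 4790 different stretches of 50 bases in annotated Itgax transcripts, 384 also occur in those of Itgad. How reads that fit both were counted was not given, so the Itgad level is uncertain. It was at most 278 reads in a library, against at least 25327 for Itgax in Ctr. No other pair among the 10 genes and Itgad shared a stretch of this length.

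Itgal, Itgam, Itgax and Itgad lie in this order on the plus strand of chromosome 7. Itgam ends 11.1 kb before Itgax, which ends 3.72 kb before Itgad, and Itgal ends 728 kb before Itgam. The adjacent genes Itgam and Itgax thus differed in opposite directions without αGlu 1, with Itgam higher and Itgax lower. The more distant Itgal was higher as well, and Itgad, whose level is uncertain, was lower. A gene model on the same strand, Gm49368, overlaps Itgam, with at most 61 reads in a library against at least 5646 for Itgam.

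The sequences before the starts of Itgax and Itgam are shown because these adjacent genes moved apart. Each is 250 bases of GRCm38.p6 that end just before the RefSeq start, on the plus strand. Capitals mark matches to motifs searched on both strands, which were GAGGAA (the core bound by PU.1, a factor of myeloid cells), TGANTCA (AP-1), the STAT6 motif (TTC and GAA with 4 bases between them, for the factor activated by IL-4), TTGCNNCAA (C/EBP) and GGGCGG (Sp1).
Itgax, chr7:128129300-128129549: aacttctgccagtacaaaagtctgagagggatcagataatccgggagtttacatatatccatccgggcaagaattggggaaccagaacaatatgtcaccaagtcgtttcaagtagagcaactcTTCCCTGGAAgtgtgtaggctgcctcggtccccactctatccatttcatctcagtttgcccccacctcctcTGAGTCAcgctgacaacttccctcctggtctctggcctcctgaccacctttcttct
Itgam, chr7:128062390-128062639: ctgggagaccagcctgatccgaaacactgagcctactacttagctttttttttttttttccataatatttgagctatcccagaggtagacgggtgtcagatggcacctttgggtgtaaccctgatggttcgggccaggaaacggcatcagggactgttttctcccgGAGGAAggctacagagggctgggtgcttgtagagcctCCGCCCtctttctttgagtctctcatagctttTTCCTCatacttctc

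The Itgax window held the STAT6 letters from 127 to 118 bases before the start and the AP-1 letters from 56 to 50 bases before it. The Itgam window held the PU.1 letters from 84 to 79 and, on the other strand, from 15 to 10 bases before the start, and the Sp1 letters from 47 to 42. No matched letters overlapped. Of 32851 RefSeq windows of the same length, 5.85% held the STAT6 letters, 6.75% the AP-1 letters, 23.3% the PU.1 letters and 32.7% the Sp1 letters. A match is a description of the letters and not a binding site. Windows were found for 7 of the 10 genes and not for Itga6, Itgal and Itgb2. Among the other 5, PU.1 letters occurred before Itga5, Itgav and Itgb1, Sp1 letters before Itga4, Itga5 and Itgb1, and none of the motifs before Itgb7.

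Of the β1 family, Itgb1 and Itga5 showed small differences. Itgb1 (ENSMUSG00000025809; chromosome 8, 128685654 to 128733200, plus strand) encodes β1, the most widely shared β chain. It had 549, 539 and 556 CPM in Ctr and 527, 462 and 474 CPM in αGlu. All αGlu libraries lay below all Ctr libraries, but the means of 548 ± 9.02 and 488 ± 34.6 CPM (SD, n = 3) were only 1.12-fold apart. The fit gave -0.17 ± 0.11 on the log2 scale (SE, adjusted p = 0.342), and -0.23 ± 0.08 without αGlu 1 (adjusted p = 0.0666, edgeR quasi-likelihood test), which did not reach the fold limit.

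Itga5 (ENSMUSG00000000555; chromosome 15, 103344286 to 103366763, minus strand) encodes α5, which with β1 is the main fibronectin receptor. It had 137, 175 and 145 CPM in Ctr and 142, 154 and 131 CPM in αGlu. The groups overlapped, αGlu 1 lay inside the Ctr range, and the log2 fold change was -0.10 ± 0.13 (SE, adjusted p = 0.636, edgeR quasi-likelihood test). Without αGlu 1 it was -0.10 ± 0.13 as well (adjusted p = 0.588). Its sign was not stable, with a value of 0.01 when Ctr 2 was left out.

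Itga4 and Itga6 shared a pattern in which αGlu 1 stayed at Ctr levels. Itga4 (ENSMUSG00000027009; chromosome 2, 79255426 to 79333123, plus strand) encodes α4, which pairs with β1 or β7 and binds VCAM1 and fibronectin. It had 127, 92.7 and 98.1 CPM in Ctr and 113, 39.5 and 43.9 CPM in αGlu 1, 2 and 3. αGlu 2 and 3 were 2.68- and 2.41-fold below the Ctr mean, and αGlu 1 lay inside the Ctr range. Its difference of -0.69 ± 0.43 (log2, SE, adjusted p = 0.333) was not called, but Itga4 fell by 1.35 when αGlu 1 was left out (SE 0.15, adjusted p = 0.00107; edgeR quasi-likelihood test). The gene Cerkl overlaps it on the opposite strand, with at most 70 reads in a library against at least 1196 for Itga4.

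Itga6 (ENSMUSG00000027111; chromosome 2, 71745616 to 71858416, plus strand) encodes α6, a laminin receptor chain that pairs with β1 or β4. It had 50.2, 31.6 and 38.4 CPM in Ctr and 44.2, 13.4 and 13.5 CPM in αGlu 1, 2 and 3. The last 2 libraries were 2.99- and 2.97-fold below the Ctr mean. The fitted difference was -0.77 ± 0.51 (log2, SE, adjusted p = 0.364), and Itga6 fell by 1.58 when αGlu 1 was left out (SE 0.20, adjusted p = 0.00156; edgeR quasi-likelihood test). Itgb4, its other β partner, had at most 0.220 CPM in any library.

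Itgav (ENSMUSG00000027087; chromosome 2, 83724397 to 83806916, plus strand) encodes αV, which pairs with several β chains and takes part in the uptake of apoptotic cells and in release of active TGF-β. It had 71.4, 98.6 and 88.7 CPM in Ctr and 88.3, 119 and 113 CPM in αGlu 1, 2 and 3. αGlu 2 and 3 were above every Ctr library, by a small margin, and αGlu 1 was not. On the log2 scale the difference was 0.31 ± 0.17 (SE, adjusted p = 0.284), and 0.42 ± 0.14 without αGlu 1 (adjusted p = 0.0536, edgeR quasi-likelihood test), under the fold limit.

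Per transcript length, the α subunits that pair with β1 summed to 147 to 164 TPM in Ctr and 157 to 168 TPM in αGlu, over Itga1, Itga4, Itga5, Itga6, Itga9 and Itgav. Their ratio to Itgb1 was 0.361 to 0.417 in Ctr and 0.391 to 0.465 in αGlu, so the ranges overlapped. Itga5 held most of this sum in both groups, 60.1% ± 4.11 (SD, n = 3) in Ctr and 56.7% ± 2.91 in αGlu. The Itga4 share was 18.4%, 12% and 14.2% in Ctr and 16.1%, 5.38% and 6.33% in αGlu 1, 2 and 3, and that of Itgav was 13.5% to 16.7% in Ctr and 16.3%, 21.1% and 21.2% in αGlu. For both, αGlu 1 lay inside the Ctr range. The Itga1 share was 0.0962% to 0.198% in Ctr and 0.0367%, 7.15% and 10.5% in αGlu, and the Itga9 share 0.484% to 0.710% in Ctr and 0.872%, 4.28% and 5.50% in αGlu.

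Itgb7 (ENSMUSG00000001281; chromosome 15, 102215995 to 102231944, minus strand) encodes β7, which pairs with α4 or αE and is best known from lymphocytes that home to the gut. It had 8.54, 32.6 and 27.3 CPM in Ctr and 59.9, 63.1 and 37.9 CPM in αGlu 1, 2 and 3. Of the 10 genes, it alone had all 3 αGlu libraries, αGlu 1 included, above all 3 Ctr libraries, and the means were 22.8 ± 12.6 and 53.6 ± 13.7 CPM (SD, n = 3). The log2 fold change of 1.23 ± 0.49 (SE) had an unadjusted p of 0.0467 and an adjusted p of 0.198 in edgeR's quasi-likelihood test. DESeq2 called it at an adjusted p of 0.0876. Without Ctr 1, the lowest Ctr library, the log2 fold change was 0.85 in the quasi-likelihood fit, under the fold limit. Unlike the 6 genes called without αGlu 1, it was not called there (log2 fold change 1.14 ± 0.50, SE, adjusted p = 0.120), and whether the genes differ in this was not tested. Of its α partners, Itga4 is given above and Itgae had at most 0.189 CPM in any library.

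In order of level per transcript length, Ctr Mφs had Itgb2 first at 1910.3 ± 94.2 TPM (SD, n = 3), followed by Itgax at 827 ± 143, Itgb1 at 405 ± 10.8, Itgam at 297 ± 38.5 and Itga5 at 92.9 ± 11.1 TPM. The ranges of these neighbours did not overlap. Itgb7, Itgav and Itga4 followed at 24.7 ± 13.4, 24.2 ± 3.48 and 22.9 ± 4.40 TPM, and Itga6 and Itgal at 13.2 ± 3.35 and 11.4 ± 5.14 TPM. Within each of these sets the neighbours overlapped and cannot be ordered. The Ctr range of Itgb7, 9.49 to 35.1 TPM, also overlapped those of Itga6 and Itgal, so Itgb7 cannot be ordered against them. In αGlu, Itgb2 stayed on top of the means at 979.8 ± 370.0 TPM, followed by Itgam at 571 ± 336 and Itgb1 at 382 ± 19.1 TPM, with the ranges of the first 3 overlapping from one to the next. Itgax, at 97.0 ± 149.7 TPM, cannot be told from Itga5 at 92.2 ± 6.78 TPM, and in αGlu 2 and 3 alone it was eighth, at 11.7 and 9.41 TPM, next to Itga4 at 9.06 and 10.3 TPM. The 10 genes together summed to 3387 to 3869 TPM in Ctr and 2121 to 2503 TPM in αGlu, without overlap. Itgb2 and Itgax, both lower in αGlu, held most of the Ctr sum. Itgam, Itgal, Itgav and Itgb7 had higher means in αGlu, so the sum does not describe the 10 genes alike.

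Of the 17 other integrin subunits 8 passed the low-count filter, and 0 of them were called with all libraries by the quasi-likelihood test. At an unadjusted p under 0.05, as for 24.7% of all genes, 2 were higher and 2 were lower. DESeq2 called 2 as higher and 3 as lower, as did the quasi-likelihood test without αGlu 1, namely Itga1, Itga9, Itgad, Itgb3 and Itgb5. Over all genes, DESeq2 called 4.23% as higher and 3.93% as lower, and the test without αGlu 1 called 8.05% and 10.5%. The median log2 fold change was -0.55 over these 8 and -0.13 over the 10 genes, beside 0.02 over all genes tested. Without αGlu 1 these medians were -0.51, -0.17 and 0.01.

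Itgb5 and Itgb3, the β chains with which αV binds vitronectin, followed Itgb2 in direction. Itgb5 had 386, 339 and 344 CPM in Ctr and 277, 116 and 117 CPM in αGlu, and Itgb3 had 117, 79.1 and 71.5 CPM in Ctr and 68.8, 19.6 and 23.6 CPM in αGlu. Neither overlapped between groups. Their log2 fold changes were -1.07 ± 0.37 and -1.26 ± 0.52 (SE, adjusted p = 0.174 and 0.204), and without αGlu 1 they fell by 1.62 and 2.05 (adjusted p = 0.000100 and 0.00112; edgeR quasi-likelihood test). Among the β partners of αV, by TPM, the share of Itgb5 was therefore 39.4% to 41.3% in Ctr and 35.6%, 21.9% and 21.4% in αGlu, while that of Itgb1 was 51.1% to 55.6% in Ctr and 59.0%, 75.7% and 75.9% in αGlu.

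Itga1 and Itga9, which pair with β1 and bind collagen and tenascin, were near the floor of detection in Ctr. Itga1 had 1.82, 1.67 and 0.882 CPM in Ctr and 0.344, 70.0 and 96.8 CPM in αGlu 1, 2 and 3. It was thus lowest of all in αGlu 1, so that the fitted log2 difference of 5.25 ± 1.60 (SE, adjusted p = 0.160) rests on αGlu 2 and 3, with 5.82 without αGlu 1 (adjusted p = 3.4e-05, edgeR quasi-likelihood test). Itga9 had 2.23, 2.05 and 2.69 CPM in Ctr and 3.38, 17.3 and 20.9 CPM in αGlu, with no overlap (log2 difference 2.59 ± 0.65, SE, adjusted p = 0.156, and 3.04 when αGlu 1 was left out). Itga2b, the αIIb chain of platelets, had 1.91 to 3.94 CPM in Ctr and 1.72 to 2.35 CPM in αGlu, with a log2 fold change of -0.58 and of -0.69 without αGlu 1. The sum of 7 megakaryocyte genes was 7.95 to 11.9 CPM in Ctr and 8.43 to 213 CPM in αGlu, and the high values were those of the platelet chemokine gene Pf4, with 149 and 209 CPM in αGlu 2 and 3. Of the 4 that passed the filter, Pf4 was higher and Treml1 and Gp1ba were lower at an unadjusted p under 0.05, and Ppbp had a log2 fold change of -0.24.

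The proteins around the receptors were read from lists of 15 activators, 7 inhibitors, 30 adhesion signalling proteins, 33 ligands and 11 surface partners. In none of these lists did the quasi-likelihood test call a gene with all libraries. At an unadjusted p under 0.05, 2 activators were higher and 1 lower of 12 tested, 2 inhibitors higher and 1 lower of 7, 3 signalling genes higher and 7 lower of 27, 4 ligands higher and 3 lower of 19, and 2 surface partners higher and 4 lower of 10, where 24.7% of all genes passed in either direction. The medians of the log2 fold changes were -0.12, 0.14, -0.19, -0.29 and -0.03 in this order. DESeq2 called 8 genes of the 5 lists as higher and 8 as lower, of the 15, 7, 30, 33 and 11 listed, beside 4.23% and 3.93% of all genes it tested.

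**Figure D4:**
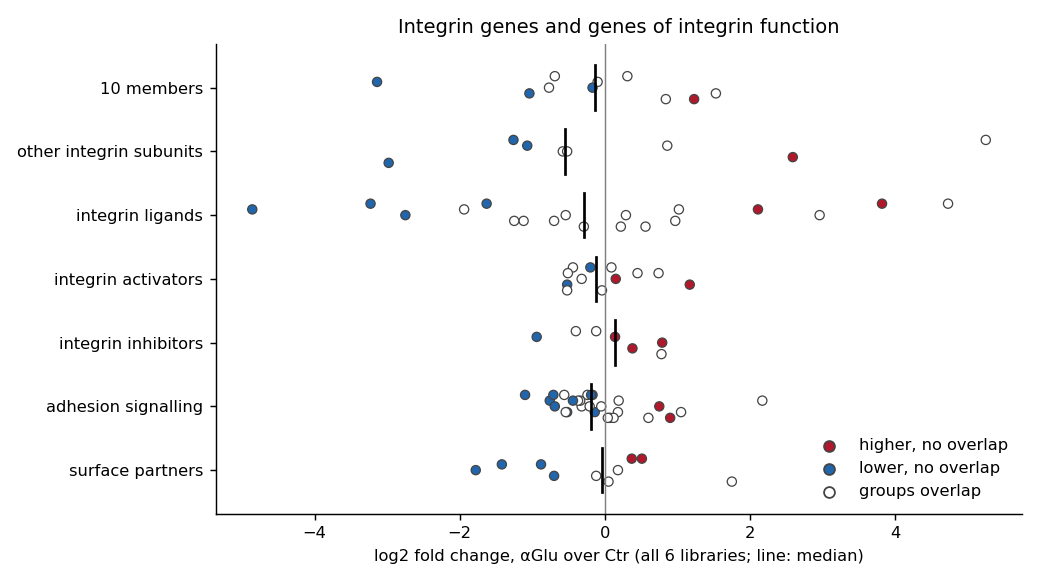
Log2 fold change of αGlu over Ctr with all 6 libraries for the genes tested in each list, with vertical lines at the list medians; filled points mark genes whose 3 αGlu libraries all lie above (red) or below (blue) the 3 Ctr libraries. Ligand genes spread widest, from -4.86 for Nid1 upward, and activators and inhibitors stay within a narrow band.

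Among ligands of these integrins, 3 genes had the smallest unadjusted p. C3, the complement protein whose fragments are bound by αM and αX with β2, had 139, 179 and 247 CPM in Ctr and 523, 3726 and 3748 CPM in αGlu 1, 2 and 3. Fn1, the fibronectin bound by α4, α5 and αV integrins, had 122, 40.2 and 29.2 CPM in Ctr and 12.2, 4.12 and 4.47 CPM in αGlu. Nid1, a basement membrane protein, had from 18 to 68 reads in Ctr and 1 or 2 in αGlu. The groups did not overlap for any of these, which the choice by smallest p favours. Of all genes, 15.9% were lower and 14.2% higher in αGlu without overlap. The log2 fold changes were 3.82 ± 0.79 for C3 and -3.23 ± 0.73 for Fn1 (SE, adjusted p = 0.149 and 0.156, edgeR quasi-likelihood test). For the counter-receptors of αL and α4, chosen after their values were seen, Icam1 had 24.9 to 32.2 CPM in Ctr and 32.4, 159 and 174 CPM in αGlu, and Vcam1 had 9.99 to 21.4 CPM in Ctr and 9.69 to 14.1 CPM in αGlu. Without αGlu 1, C3 rose by 4.31 and Fn1 fell by 3.89 (adjusted p = 7.52e-05 and 0.00698, edgeR quasi-likelihood test), and 6 ligand genes rose and 7 fell of 21 tested, beside 8.05% and 10.5% of all genes.

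On the cytoplasmic side, the genes with the smallest unadjusted p were Fyb, Cyth1 and Apbb1ip among activators. Fyb, an adaptor that couples Rap1 signals to integrins, had 157 to 186 CPM in Ctr and 230.1, 460.1 and 477 CPM in αGlu (log2 fold change 1.17 ± 0.29, SE, adjusted p = 0.156, edgeR quasi-likelihood test), and it rose by 1.44 without αGlu 1 (adjusted p = 0.000167). Cyth1, a cytohesin that binds the β2 tail, had 68.8 to 81.8 CPM in Ctr and 78.5, 161 and 135 CPM in αGlu, and Apbb1ip, which recruits talin, had 116 to 134 CPM in Ctr and 76.1 to 118 CPM in αGlu. Of the inhibitors, the filamin Flna, which competes with talin for β tails, had 855 to 1456 CPM in Ctr and 453 to 817 CPM in αGlu. Itgb1bp1, which binds the β1 tail, had 22.4 to 26.9 CPM in Ctr and 29.5 to 50.2 CPM in αGlu, and Nisch, which binds α5, had 199 to 236 CPM in Ctr and 252 to 307 CPM in αGlu. Cyth1 and Apbb1ip overlapped between groups, since αGlu 1 lay inside the Ctr range. Fyb and the 3 inhibitors did not overlap, which the choice by smallest p favours.

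In the signalling list, Actn1, an actin cross-linker at adhesion sites, had 311 to 384 CPM in Ctr and 224, 136 and 136 CPM in αGlu (log2 fold change -1.10 ± 0.23, SE, adjusted p = 0.149, edgeR quasi-likelihood test), and it fell by 1.39 without αGlu 1 (adjusted p = 0.000349). Zyx, a protein of mature adhesions, had 202 to 254 CPM in Ctr and 154 to 182 CPM in αGlu. Parvg, the parvin of blood cells, was higher, with 20.9 to 29.6 CPM in Ctr and 41.5 to 53.8 CPM in αGlu. For all of these, which had the smallest unadjusted p of their list, αGlu 1 lay on the same side of Ctr as αGlu 2 and 3. The choice by p favours this. The surface partners Cd9 and Cd151, tetraspanins that associate with β1 integrins, had 564 to 606 and 89.3 to 124 CPM in Ctr against 120 to 392 and 45.5 to 79.1 CPM in αGlu. A further tetraspanin, Cd82, had 49.1 to 59.2 CPM in Ctr and 59.9 to 89.1 CPM in αGlu. Without αGlu 1, 1 activator rose and 1 fell of 12 tested, 1 inhibitor rose and 1 fell of 7, 4 signalling genes rose and 4 fell of 29, and 1 surface partner rose and 4 fell of 10. Over all genes 8.05% rose and 10.5% fell. Over the 5 lists and the other integrins, the quasi-likelihood test then called 35 genes.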

How the data were processed

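Libraries were made with an Illumina stranded mRNA kit, and the authors' read processing used QIAGEN's RNA-seq Analysis Portal. The build is GRCm38 per the labels. The aligner, the annotation release and how reads matching more than 1 gene were treated are not given in the sources used here. For each of the 6 libraries the authors deposited whole-number exon counts without normalization, RPKM, TPM and a CPM column, a signal scaled by an effective library size that was not used. A row without a gene name was dropped. All tests started from the deposited counts. The members and lists were chosen with earlier results of these data known.

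Low-count genes were filtered in edgeR 4.0.16 by filterByExpr, at a minimum count of 10 and a minimum total of 15, and 11933 genes remained. After TMM scaling, a quasi-likelihood model of group alone was fitted in R 4.3.3, with two-sided tests and adjustment by Benjamini-Hochberg. CPM values in the text are counts scaled to TMM-adjusted library sizes, fold changes are αGlu over Ctr, and standard errors were derived from the F statistic. Levels of different genes were compared with the deposited TPM values, and with RPKM as an alternative. The libraries number 3 per group, and the study describes them as independent experiments. Counts of every pair of libraries differed beyond sampling noise, with a chi-square of at least 20.1 per gene. Alternatives were DESeq2 1.42.0, limma-voom (limma 3.58.1), other scalings, filters and thresholds, the replicate number as a block, and each library left out. The models were tested on simulated data. Named beyond the 10 members were other integrin subunits with a mean of at least 1 TPM in a group, and the 3 genes of each list with the smallest unadjusted p. Gene positions are from GENCODE M21 (GRCm38, counted from 1), promoter windows from RefSeq, and the oligonucleotide from the study's own list. Neither sequencing batch nor date was given in the labels.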

Additional observations from a re-analysis of the deposited data

How the results depend on the processing

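DESeq2 called 2 of the 10 integrins and 1119 genes in all, against 0 and 0 in the quasi-likelihood test. With each library left out in turn, the count of integrins ranged from 0 to 6 and that of all genes from 0 to 2290, and every count above 0 came from leaving out αGlu 1. The count for the lists of other genes was 0 with all libraries and 35 without αGlu 1. In that fit 8 other integrins, 12 activators, 7 inhibitors, 29 signalling genes, 21 ligands and 10 surface partners were tested. Of all genes, it called 8.05% as higher and 10.5% as lower. With the replicate number as a block, 17 genes were called (9 higher and 8 lower) and 0 of them were integrins. To look for pairs, the deviation of each gene from its group mean was correlated between Ctr and αGlu libraries. Pearson's r across genes was 0.08, 0.064 and 0.16 for same-numbered libraries, and -0.12 to 0.052 for different numbers. The labels do not say that the numbers mark pairs, and these small values do not settle it. The log2 fold change of Itga5 ranged from -0.16 to 0.01 with each library left out, and changed sign without Ctr 2. The other 9 integrins kept their direction under the 14 alternatives that give a fold change. Scaling by library size without TMM factors put the median over all genes at 0.10 in place of 0.02. Over these alternatives the adjusted p of Itgax ranged from 1.84e-05 to 0.455, that of Itgb2 from 0.000288 to 0.427, and that of Itgb7 from 0.0876 to 0.459. The causes were not tested.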

Other observations

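The longest run of bases complementary to the antisense oligonucleotide was compared among annotated transcripts, as a description of sequence only. Itgax held a run of 10 bases (CCCTGGTGGT), and 4.74% of 11923 genes held a run at least as long. It lay in 1 of the 4 annotated Itgax transcripts, and in 0 of the coding ones. The other 9 integrin genes held runs of 7 or 8 bases, lengths reached by 91.3% and 56.8% of genes. Long transcripts hold more runs by their length, which was not taken into account.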
